A study of Mus musculus with 6 samples.

Results

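The tetraspanins Cd9, Cd63, Cd81, Cd53 and Cd82 were described in spinal cord cells profiled by droplet-based single-cell RNA sequencing. They were chosen by name, as tetraspanins of microglia and glia, and are 5 of the 18792 genes of the deposited table. The labels list 2 libraries from Nd6 mice with EAE, 1 from Nd6 healthy controls, 2 from WT mice with EAE and 1 from WT healthy controls. In Nd6 mice a single base of the mitochondrial genome is altered, within the mt-Nd6 gene for a complex I subunit, and the alteration is not confined to one cell type. EAE, experimental autoimmune encephalomyelitis, was induced with a MOG peptide and is a mouse model of inflammatory demyelination. All mice, controls included, were perfused with the transcription inhibitors actinomycin D and triptolide, and debris was removed after digestion of the cord. By the study's methods and legends EAE was induced in adult female mice, the healthy controls were of both sexes, and the EAE cells come from about a month after immunization.

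Tetraspanins are small membrane proteins that span the membrane 4 times and gather integrins, proteases and immune receptors into shared patches of membrane. Cd63 sits mainly in late endosomes and lysosomes and is a common marker of small extracellular vesicles, as are Cd9 and Cd81. Cd53 belongs to leukocytes, and Cd82 is known from T cell activation and as a suppressor of metastasis. Microglia are the resident macrophages of the cord. In demyelinating disease they lose homeostatic genes such as P2ry12 and Tmem119 and take on Apoe and lysosomal genes, and monocytes enter from the blood.

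The 5 genes lie on 5 different chromosomes. In RefSeq on GRCm38.p6, Cd9 is at chr6:125460266-125494760 on the minus strand, Cd63 at chr10:128896231-128912822 on the plus strand, Cd81 at chr7:143052750-143067930 on the plus strand, Cd53 at chr3:106758861-106790149 on the minus strand and Cd82 at chr2:93419102-93462950 on the minus strand. The 250 bases before the annotated start are shown for the genes whose levels in microglia-marked cells are described most closely, Cd9 (chr6:125494761-125495010, minus strand), Cd63 (chr10:128909095-128909344, plus strand) and Cd81 (chr7:143052500-143052749, plus strand). They are written 5′ to 3′ on the gene's strand. Capitals mark the GC box GGGCGG and the PU.1 core GAGGAAG, which reads CTTCCTC on the other strand.
Cd9: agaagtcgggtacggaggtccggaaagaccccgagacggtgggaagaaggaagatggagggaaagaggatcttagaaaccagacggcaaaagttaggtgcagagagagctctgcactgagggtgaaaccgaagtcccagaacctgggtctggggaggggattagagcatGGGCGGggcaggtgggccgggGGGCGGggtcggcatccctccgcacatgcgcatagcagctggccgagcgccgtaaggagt
Cd63: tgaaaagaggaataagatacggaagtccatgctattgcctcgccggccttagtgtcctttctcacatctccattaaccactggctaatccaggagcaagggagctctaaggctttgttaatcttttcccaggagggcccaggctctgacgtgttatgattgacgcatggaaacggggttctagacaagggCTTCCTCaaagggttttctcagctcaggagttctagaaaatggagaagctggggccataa
Cd81: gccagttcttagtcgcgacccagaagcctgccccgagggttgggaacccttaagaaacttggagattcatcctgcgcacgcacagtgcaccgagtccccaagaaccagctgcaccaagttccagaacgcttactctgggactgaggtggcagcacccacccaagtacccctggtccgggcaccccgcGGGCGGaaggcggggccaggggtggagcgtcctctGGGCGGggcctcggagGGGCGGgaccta
The window of Cd9 held 2 GC boxes and that of Cd81 held 3, and that of Cd63 held none and 1 PU.1 core. The window of Cd53 held neither motif. Of 32851 windows of this length before RefSeq starts, 32.7% held GGGCGG and 10.6% GAGGAAG, on either strand. The E-box CACGTG, present in 6.02% of all windows, and TATAAA, present in 12.4%, were in none of the windows of the 5 genes, among them 4 starts of Cd82. The window of Cd63 lies inside the gene's annotated span, which has a further start upstream. A match of letters is a description of the window only.

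The table held 13614 cells. Each cell's name carries a barcode and 1 of 6 numbers. The library behind a number is not named in the labels or the table. Set sizes were not used to assign genotypes. The table was therefore read as 1 pooled sample: neither genotypes nor disease states were compared and no p-value is given. Cells with the same number form a set, and the 6 sets are called A to F by size, from 4633 cells in A to 809 in F, and serve to show how far a level varied. They are not replicates of a condition, and 18 barcodes occurred in more than 1 set (36 cells). The deposited values are whole numbers with totals of 687 to 1578 per cell (median 962) and were treated as a score rather than as UMI counts. Among the 1365 cells with the fewest genes, Cd9 stood at 1 in 65 cells and at 2 in 317, so a value of 1 does not mean the same in every cell. The depth behind the values is unknown. Intervals are exact binomial 95% intervals that cover counting error only.

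Cells were gated by marker lists that do not include the 5 genes. The lists held 8 markers, except 10 for proliferating cells and 6 for border macrophages. Some markers were absent from the table, which left 6 for Schwann cells, 7 for fibroblasts, 7 for B or plasma cells and 5 for border macrophages. A non-myeloid class needed at least 3 of its markers, and a myeloid cell at least 4 of the myeloid markers, such as Tyrobp and Csf1r. This gave 8346 myeloid cells (61.3%), 1826 non-myeloid cells (13.4%) and 3442 ungated cells (25.3%). Only 1 cell passed the gate for neurons and 5 that for oligodendrocyte precursors. Myeloid cells with at least 2 microglia markers and under 2 monocyte-derived markers, such as Arg1 and Ccr2, are called microglia-marked. They were split by Apoe into low (under 10), raised (10 to under 60) and very high (60 or more). These are ranges of 1 value, not cell types: of 3375 microglia-marked cells, 134 lay between 8 and 12 and 124 between 50 and 70. Apoe also averaged 63.5 in endothelial-gated, 51.5 in oligodendrocyte-gated, 44.2 in T or NK-gated and 5.30 in ependymal-gated cells. Endothelial-gated cells had Cd63 in 77.7% in set A and in 2.60% in set E. How far RNA from other cells added to Apoe, Cd63 or Cd9 in microglia-marked cells was not tested. In cells with very high Apoe only 5 of the 8 microglia markers were above their level in the other gated cells, with a summed mean of 2.81 against 2.61, so their mark is weak. In the other 10 classes checked, every marker listed was higher than in the other gated cells. The same markers set the gates, so this is no independent check of the classes.

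Cd81, Cd63 and Cd9 had a value above 0 in most cells, and Cd53 and Cd82 in few. The share was 64.0% for Cd81 (95% interval 63.2 to 64.8%), 62.0% for Cd63 (61.2 to 62.8%), 59.2% for Cd9 (58.3 to 59.99%), 19.2% for Cd53 (18.5 to 19.8%) and 5.07% for Cd82 (4.71 to 5.45%). The highest single values were 20 for Cd81, 19 for Cd9, 16 for Cd63, 5 for Cd53 and 4 for Cd82. The genes were not compared with each other by level, because the scale was not per length and its origin is not known.

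**Figure D1:**
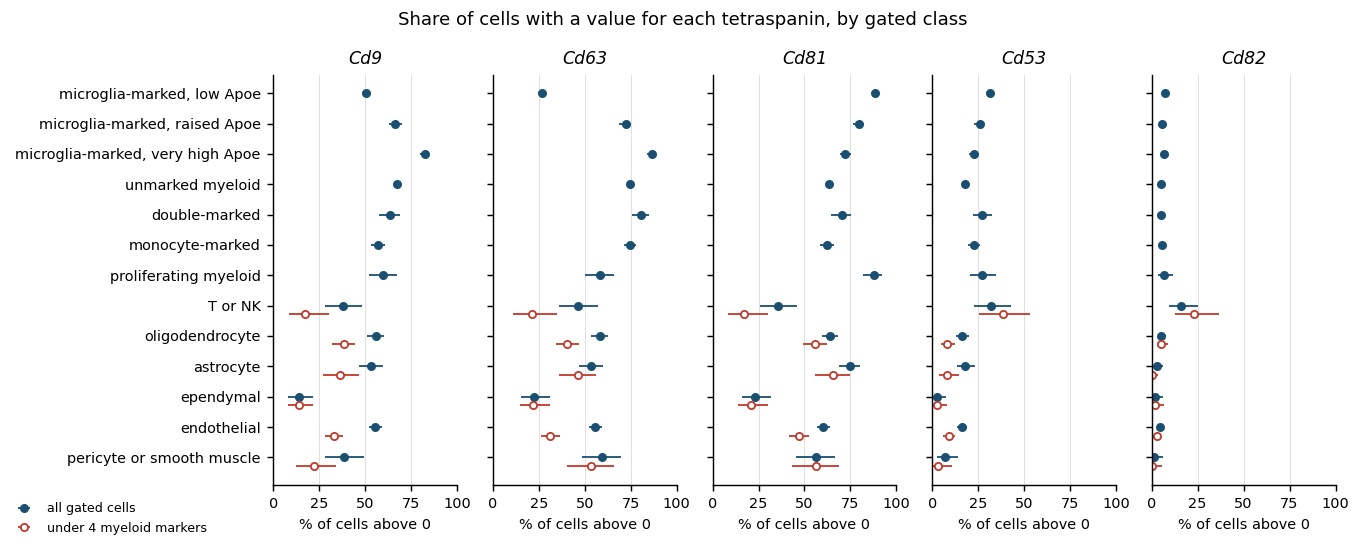
Share of cells with a value above 0 (x axis, percent) for each of the 5 genes in the 13 gated classes of at least 50 cells, with exact binomial 95% intervals. Filled points are all gated cells, and open points are the non-myeloid cells with under 4 myeloid markers. Cd63 was lowest among myeloid classes in microglia-marked cells with low Apoe (26.8%), where Cd81 was highest (88.4%).

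Microglia-marked cells differed in tetraspanins along the Apoe ranges. With very high Apoe, Cd63 was found in 86.3% of 971 cells (84.0 to 88.4%), against 26.8% of 1643 cells with low Apoe (24.7 to 29.1%). Cd9 was found in 82.3% of cells with very high Apoe (79.7 to 84.6%) and in 50.5% with low Apoe (48.1 to 53.0%). Cd81 went the other way, with 72.3% (69.4 to 75.1%) in cells with very high Apoe and 88.4% (86.8 to 89.9%) with low Apoe. Cd53 was found in 22.9% with very high Apoe and in 31.4% with low Apoe, and Cd82 in 6.9% and 7.0%.

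The means showed the same order. Cd63 averaged 2.06 ± 1.57 (SD over cells, as for all means here) with very high Apoe and 0.398 ± 0.841 with low Apoe. Cd9 averaged 1.65 ± 1.45 with very high Apoe and 0.860 ± 1.12 with low Apoe. Cd81 averaged 1.39 ± 1.59 with very high Apoe and 2.91 ± 2.11 with low Apoe. In each case the values of single cells overlapped widely.

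Over all genes with a mean of at least 0.1 in either range, a share higher by at least 10 percentage points with very high than with low Apoe was seen for 12.9% of 1716 genes, and a share lower by as much for 8.22%. The median difference was 0.73 points. Of the 5 tetraspanins 4 passed this floor and Cd82 did not. Cd63 (59.5 points) and Cd9 (31.8 points) were past 10 points upwards, Cd81 (fell by 16.1 points) downwards, and Cd53 (-8.54 points) was within them. The difference of Cd63 exceeded that of 99.4% of the genes and that of Cd9 98.4%, whereas 3.73% of the genes had a lower difference than Cd81. With the values scaled to a total of 1000 per cell, the differences in means kept their sign, at 1.49 for Cd63, 0.667 for Cd9 and -1.59 for Cd81. The median number of genes per cell was 677 with very high, 562 with raised and 523 with low Apoe. How far this added to the differences in share was not tested.

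The ranges and the sets could not be separated in the pooled cells. Of the cells with low Apoe 849 were in set D and 694 in set E, and of those with very high Apoe 742 were in set A. Set A held no cell with low Apoe, and D and E together held 1 with very high Apoe. The contrast could be seen within a set only in B, with 23 cells of very high and 62 of low Apoe, and in F, with 74 and 37.

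Cd63 was higher with very high Apoe in both of these sets. In set B it averaged 4.22 with very high Apoe and 1.45 with low Apoe, and in set F 1.70 and 0.649. The share of cells with Cd63 was 95.7% against 66.1% in set B and 82.4% against 45.9% in set F. Cd9 averaged 1.48 with very high Apoe and 1.05 with low Apoe in set B, and 1.74 and 1.59 in set F, where the difference of the scaled means was -0.06. The pooled gap of 31.8 points for Cd9 was 11.0 points within set B and 5.41 within set F. The share of cells with Cd81 was lower with very high Apoe in both sets, by a difference of -1.75 points in B and -17.6 points in F. Its means pointed in opposite directions, at 4.70 with very high Apoe and 3.52 with low Apoe in set B, but 1.85 and 4.0 in set F.

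Across the 3 ranges, Cd63 averaged 1.45, 1.93 and 4.22 in set B and 0.649, 1.30 and 1.70 in set F, in the order low, raised and very high. In the pooled cells the shares of Cd9 (15.9 points) and Cd63 (14.2 points) were past 10 points upwards between very high and raised Apoe. So were 5.79% of 1589 genes, and 2.14% were past 10 points downwards. The pooled scaled means of these ranges differed by 0.093 for Cd9 and 0.142 for Cd63. Cd63 was higher with very high than with raised Apoe in sets A (2.11 against 1.48) and C (1.59 against 1.28). All 4 sets that could be compared had their highest Cd63 in the range of very high Apoe. Cd81 was lower with very high than with raised Apoe in set A (1.16 against 3.24), set C (1.83 against 2.45) and set F (1.85 against 3.15), and higher in set B (4.70 against 2.87, from 23 cells with very high Apoe). The share of cells with Cd9 was higher with very high Apoe in sets A (9.58 points), B (10.6 points) and F (9.27 points) and lower in C (-6.33 points). Its mean showed another pattern: with very high Apoe it was lower in sets A (1.60 against 1.88) and C (1.91 against 1.97) and higher in B (1.48 against 1.20) and F (1.74 against 1.66). The difference of the scaled means of Cd9 was -0.534 in A, 0.176 in B, 0.004 in C and -0.138 in F. The directions in C and F thus changed with scaling.

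Raised against low Apoe gave Cd63 a pooled difference of 45.3 points, with 6.96% of 1580 genes past 10 points upwards and 6.20% downwards. Cd9 was past that mark too, at 15.8 points. Within sets the Cd63 share differed by 9.84 points in B and 19.7 points in F, and that of Cd9 by 0.437 points in B and -3.86 in F. Cd81 had nearly the same pooled mean in both ranges, 2.90 with raised and 2.91 with low Apoe, and was lower with raised Apoe within set B (2.87 against 3.52) and within set F (3.15 against 4.0). The few cells with raised Apoe in sets D (12 cells) and E (8 cells) had Cd63 means of 2.17 and 1.88, above the 0.325 and 0.379 of the cells with low Apoe there.

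**Figure D2:**
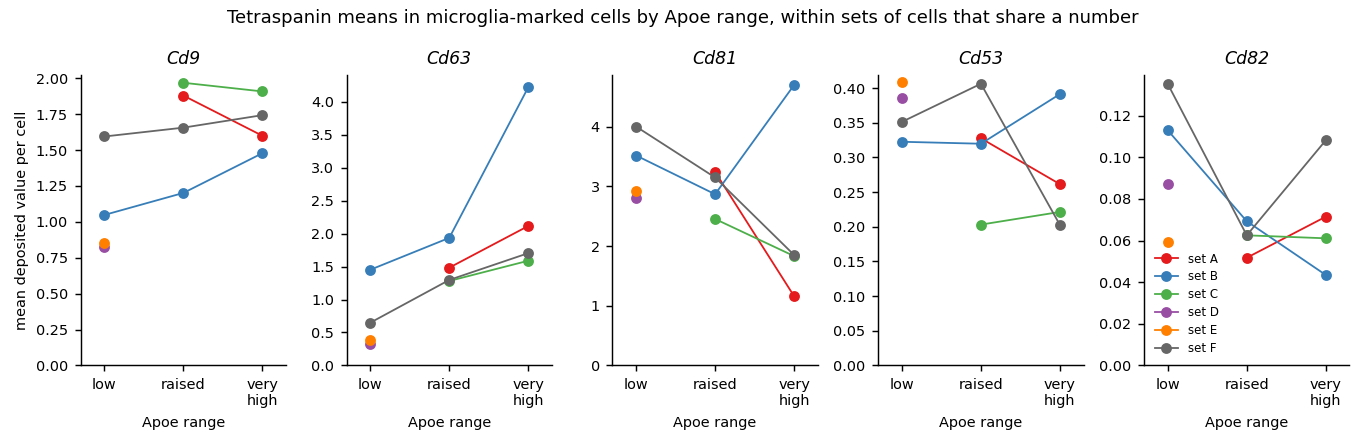
Mean deposited value per cell (y axis, each panel with its own scale) of the 5 genes in microglia-marked cells with low, raised and very high Apoe (x axis), 1 line or point for each set with at least 20 cells in that range. Cd63 was higher from range to range in sets B and F, whereas Cd81 ended highest in set B (4.70) and lowest in set A (1.16).

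The leukocyte tetraspanin Cd53 and Cd82 had smaller pooled differences in share along Apoe than the other 3 genes. Cd53 averaged 0.392 with low, 0.321 with raised and 0.254 with very high Apoe in the pooled cells. Within set F it averaged 0.203 with very high and 0.351 with low Apoe, and within set B 0.391 and 0.323, so its direction was not shared. Its share differed by -5.41 points in set F and by 11.7 points in set B. Cd82 stayed at or below a mean of 0.135 in each range of each set of at least 20 cells.

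Monocyte-marked cells were set against microglia-marked cells with low Apoe, which resemble microglia at rest by their markers. Cd63 was found in 74.7% of 648 monocyte-marked cells (71.2 to 78.0%) and 26.8% of the low Apoe cells, and Cd81 in 62.3% (58.5 to 66.1%) and 88.4%. In this contrast 13.1% of 1720 genes were past 10 points upwards and 10.9% downwards. As 609 of the monocyte-marked cells were in set B, the contrast was also read there. Within set B, Cd63 averaged 1.44 in monocyte-marked cells and 1.45 in the 62 microglia-marked cells with low Apoe, whereas Cd81 averaged 1.11 and 3.52. By share, Cd63 was found in 74.1% of the monocyte-marked and 66.1% of the low Apoe cells of set B, a difference of 7.93 points against 47.9 in the pooled cells, and the difference for Cd81 was -27.6 points against -26.1 in the pooled cells.

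Cd81 was also lower in monocyte-marked cells than in microglia-marked cells with raised Apoe, in both sets that held enough of each. It averaged 1.39 in 33 monocyte-marked cells and 3.24 in 58 microglia-marked cells of set A, and 1.11 and 2.87 in set B. The pooled share differed by -17.3 points, past 10 points downwards, as for 3.56% of 1546 genes, and 4.46% of the genes were past 10 points upwards. Cd63 went in opposite directions: it averaged 2.52 in monocyte-marked and 1.48 in microglia-marked cells of set A, and 1.44 and 1.93 in set B. Cd9 was lower in monocyte-marked cells in both sets by its mean, with 1.64 against 1.88 in set A and 0.897 against 1.20 in set B, but its share was higher in set A (84.8% against 75.9%).

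The 305 double-marked cells, 288 of them in set B, carried markers of both lists. Cd81 averaged 1.42 ± 1.47 there, between the monocyte-marked (1.13 ± 1.28) and the microglia-marked cells with raised Apoe (2.90 ± 2.81). Cd63 was found in 80.3% of them (75.4 to 84.6%). The 3846 unmarked myeloid cells, the largest class, had Cd63 in 74.6% and Cd81 in 63.5%. In these cells Cd63 averaged 2.05 in set A, 1.54 in B, 1.63 in C and 1.72 in F, but 0.299 in D and 0.511 in E, and Cd81 was highest in D (2.37) and E (2.20). The sets with low Cd63 were thus those with high Cd81 also among cells that carry neither mark.

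Proliferating myeloid cells, gated by at least 3 of 10 cell cycle genes such as Mki67 and Top2a, had the highest Cd81 of the 13 classes, at 3.01 ± 2.55 in 162 cells. After scaling to a common total their Cd81 (2.61) was below that of microglia-marked cells with raised (2.90) and low Apoe (2.87). Of these cells 139 were in set B, where Cd81 averaged 3.03 against 2.87 in microglia-marked cells with raised Apoe, and 2.61 against 2.79 after scaling. Cd63 was lower in the proliferating cells of set B, at 1.17 against 1.93, and its share was 59.0% against 76.0%. Over all genes, 1.40% of 1924 were lower by at least 10 points in the pooled contrast, in which Cd63 fell by 14.1 points.

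Interferon-marked myeloid cells, with at least 3 of 10 interferon-induced genes such as Ifit1 and Isg15, numbered 93, of which 67 were in set B. There Cd81 averaged 2.66 ± 3.49 against 1.71 ± 2.04 in the 2651 other myeloid cells, and was found in 76.1% against 67.7%. Cd53 averaged 0.463 against 0.260 and was found in 38.8% against 22.6%. Cd63 averaged 1.84 against 1.58 and was found in 83.6% against 71.3%. Cd9 averaged 1.06 against 0.990 and was found in 59.7% against 56.5%. The SD of Cd81 exceeded the mean among the interferon-marked cells and among the other myeloid cells of set B. The myeloid cells of set B included 1105 unmarked cells (Cd81 mean 1.33), 609 monocyte-marked cells (1.11) and 491 microglia-marked cells with raised Apoe (2.87). The interferon contrast was not read within these states, scaled to a common total or set beside a share over all genes. Whether its differences go with the interferon mark, the mix of states or detection was not tested.

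Outside the myeloid cells, values of the 5 genes had to be read against free myeloid RNA and cells caught together. Many cells of the non-myeloid gates also carried at least 4 myeloid markers: 405 of 753 endothelial, 231 of 477 oligodendrocyte, 138 of 240 astrocyte, 41 of 93 T or NK, 25 of 89 pericyte or smooth muscle and 7 of 116 ependymal cells. Doublets were not called. The values below are those of cells with under 4 myeloid markers. Beside each stands the level predicted from Ctss, C1qa, C1qb, C1qc and Lyz2, genes of myeloid cells: the mean of the tetraspanin in the myeloid cells of the same set times the ratio of these 5 genes in the class and in the myeloid cells. The prediction assumes that all myeloid RNA in the class comes in 1 proportion. Cells with under 4 myeloid markers were not free of myeloid RNA. Tyrobp was found in 64.7% of the astrocyte, 53.1% of the pericyte or smooth muscle and 47.4% of the endothelial cells kept. It was also found in 43.9% of the oligodendrocyte, 30.8% of the T or NK and 22.9% of the ependymal cells kept.

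Oligodendrocyte-gated cells, 246 after this restriction, had Cd81 in 55.7% (49.2 to 62.0%), with a mean of 1.48 ± 2.02. The mean was 1.72 in set A, 1.82 in B, 0.903 in C, 1.00 in D, 1.35 in E and 1.55 in F, from 20 to 78 cells a set. It was above the predicted level in 6 of 6 sets, by 0.579 to 1.34. Cd9, which is known from myelin, was above the predicted level in 6 of 6 sets as well, by 0.149 to 0.747, with a mean of 0.789 ± 1.55 and a highest value of 15. Cd63 exceeded its prediction in 6 of 6 sets by 0.0584 to 0.488, but its own level followed the set, at 1.31 in A and 0.0968 in D. Cd82 was found in 9.68% of 31 cells in set D and 13.5% of 37 cells in set E, and in 0 to 5.13% in the other sets. Each of these Cd82 shares rests on under 6 cells.

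Astrocyte-gated cells had the highest Cd81 of the 6 non-myeloid classes with at least 50 cells. In 102 cells it was found in 65.7% (55.6 to 74.8%) with a mean of 1.95 ± 2.07. The sets that could be read, A and B, had means of 1.83 and 1.94, against predictions of 0.617 and 0.804. Cd63 (1.42 against a predicted 1.14 in set A, 1.00 against 0.736 in set B) and Cd9 (1.03 against 0.880, and 0.576 against 0.459) were closer to theirs. Cd82 was found in 0 of 102 cells, with an upper bound of 3.55%.

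Endothelial cells, 348 after the restriction, had Cd81 in 47.1% (41.8 to 52.5%). Its mean was above the prediction in 5 of 6 sets, by as much as 0.647 in set D, and below it by 0.260 in set F. Cd9 was above its prediction in 3 of 6 sets and Cd63 in 2 of 6, so neither was set apart from the free myeloid level. Cd63 averaged 1.10 in set A, 0.0152 in set E and 0 in set D, where 0 of 33 cells had a value (upper bound 10.6%), although Cd63 is known from endothelial cells, in which it sits on the granules that store von Willebrand factor. The myeloid cells of the same sets had Cd63 means of 2.06 in A, 0.410 in E and 0.343 in D.

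Pericyte or smooth muscle cells of set A, of which 20 were left, had Cd63 at 1.60 against a predicted 0.946, Cd81 at 1.15 against 0.514, and Cd9 at 0.350 against 0.733. Over all sets Cd63 was found in 53.1% of 64 such cells (40.2 to 65.7%) and Cd82 in 0 (upper bound 5.60%). Ependymal cells had low levels of all 5 genes: among 109 cells Cd63 was found in 22.0%, Cd81 in 21.1%, Cd9 in 13.8%, Cd53 in 2.75% and Cd82 in 1.83%. Their Cd81 means of 0.357 in set D and 0.238 in set E were above predictions of 0.148 and 0.0651.

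In the T or NK cells that could be read within a set, Cd53 and Cd82 were above the level predicted from free myeloid RNA and the other 3 genes were not. Of 52 cells, 38.5% had Cd53 (25.3 to 53.0%) and 23.1% had Cd82 (12.5 to 36.8%), against 17.3% with Cd9, 21.2% with Cd63 and 17.3% with Cd81, and the interval of Cd82 includes the shares of these 3. In the 22 cells of set B, Cd53 averaged 0.455 against a predicted 0.0465 and Cd82 0.136 against 0.0091, whereas Cd9 (0.136 against 0.174), Cd63 (0.273 against 0.279) and Cd81 (0.227 against 0.305) were at or below their predictions. The share of cells with Cd82 in set B was 13.6%, as for Cd9 and Cd81. By all gated cells, T or NK cells had the highest Cd82 of the 13 classes, at a mean of 0.172 ± 0.407 in 93 cells, with 0.0773 in the next class. The set means of these 2 classes overlapped, however, with 0.0882 to 0.300 in T or NK cells and 0.0591 to 0.135 in microglia-marked cells with low Apoe.

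A class too small for the comparison stood out for Cd9. Of 15 Schwann-gated cells, all in set A, 80.0% had Cd9 (51.9 to 95.7%), with a mean of 5.40 ± 6.40 and a highest value of 19, the highest Cd9 value of the table. Schwann cells form peripheral myelin and are known to carry Cd9. Their Cd63 mean was 0.867 and their Cd81 mean 0.400.

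**Figure D3:**
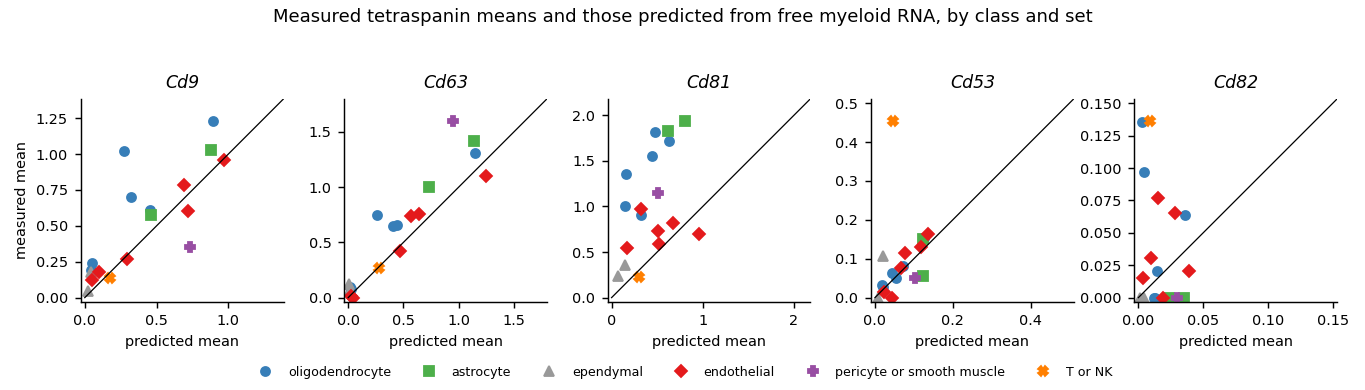
Measured mean (y axis) against the mean predicted from free myeloid RNA (x axis), both in deposited units, for non-myeloid cells with under 4 myeloid markers; each symbol is 1 class in 1 set with at least 20 such cells, and the line marks equality. Cd81 lay above the line for oligodendrocytes in 6 of 6 sets, whereas Cd9 and Cd63 of endothelial cells lay on either side of it.

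Over the 13 classes, taken with all gated cells, the order of the means differed by gene. Cd63 and Cd9 had their highest mean in microglia-marked cells with very high Apoe (2.06 and 1.65) and their lowest in ependymal cells (0.284 and 0.207). Among cells with under 4 myeloid markers, Cd63 averaged 0.269 in T or NK and 0.284 in ependymal cells, so its lowest class depended on this restriction. Cd9 averaged 0.231 in these T or NK cells and 0.211 in these ependymal cells. The top 3 classes for Cd9 were microglia-marked cells with very high Apoe, those with raised Apoe (1.43) and unmarked myeloid cells (1.40), and the set means of neighbours in this order overlapped. For Cd63 the set means of microglia-marked cells with low Apoe (0.325 to 1.45) lay above those of ependymal cells (0.0625 to 0.116). This holds for sets with at least 20 cells of the class, for ependymal cells only D and E. In the smaller ependymal sets Cd63 averaged 0.688 in A (16 cells), 0.188 in B (16 cells), 1.75 in C (4 cells) and 1.0 in F (5 cells). The set means of the other neighbours in the Cd63 order that could be compared overlapped. By all gated cells, Cd53 was highest in microglia-marked cells with low Apoe (0.392) and in T or NK cells (0.344), whose set means overlapped. In the 52 T or NK cells with under 4 myeloid markers Cd53 averaged 0.404, so the order of these 2 classes depended on the restriction.

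Likeness between genes was measured by Pearson's r of the log2 class means (with 0.01 added) over the 13 classes, among 4504 genes. Cd9 was most like Eef1a1 (r = 0.98), a translation elongation factor, Ctsd (0.97), a lysosomal protease, and Cd68 (0.97), a lysosomal membrane protein. Cd63 was most like Clec7a (0.95), a receptor for fungal glucans, Cd74 (0.94), the MHC class II invariant chain, and Lrmda (0.93). Cd81 was most like Rnaset2a (0.96) and Rnaset2b (0.94), near-identical ribonuclease genes, and Itgb5 (0.96), an integrin subunit. Cd53 was most like Hcls1 (0.99), Fam49b (0.98) and Ptpn18 (0.98), and Cd82 most like Zfp36l2 (0.96), Ikzf1 (0.95) and Tnpo1 (0.93). Among the 5 genes, r was 0.84 for Cd9 with Cd63, 0.81 for Cd53 with Cd82, 0.72 for Cd9 with Cd81 and 0.40 for Cd63 with Cd81. The classes share libraries, depth and free RNA, so these values only describe the table.

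Of 26 other tetraspanins listed, 21 were in the table and 9 reached a mean of 0.1 in a class. Only 5 had a mean of 0.1 with very high or with low Apoe, the floor used for all genes. Their differences in share lay between -3.48 and 0.368 points. All but Cd37 were found in few of the cells with low Apoe (11.99% or less), which leaves little room for a fall of 10 points. Tspan2 was highest in oligodendrocytes (mean 0.396), where it is a known myelin gene, Tspan3 in astrocytes (0.242), Tspan5 (0.276) and Tspan13 (0.201) in endothelial cells, Cd151 in pericytes or smooth muscle cells (0.124) and Cd37, a leukocyte tetraspanin, in microglia-marked cells with low Apoe (0.292). Of 14 partners and vesicle genes, 7 had a mean of 0.1 with very high or with low Apoe. Ptprc, the leukocyte phosphatase CD45, was past 10 points upwards (14.9 points), as were 12.9% of the 1716 genes that passed this floor. Itgb1, the integrin beta 1 subunit that binds tetraspanins, was past 10 points downwards (-16.6 points), as were 8.22% of the 1716. Sdcbp, the vesicle adaptor syntenin, had a value in 28.7% of cells in both ranges.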

How the data were processed

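Spinal cord cells of 6 libraries were measured by droplet-based RNA sequencing. The submitters' processing notes name GRCm38, Cell Ranger 7.1.0 and Seurat 4.3.0.1, and the authors merged and filtered the cells. They deposited 1 table of whole-number values, treated here as a score per gene and cell, since the deposited totals of 687 to 1578 do not behave as UMI counts. How these values were made is not given in the sources used here. All 13614 cells were used. The labels do not tie the numbers in the cell names to libraries, and set sizes were not used to do so, so no count test was run and no group was compared. Cells were gated by marker lists, and means, shares above 0, exact binomial intervals (scipy 1.17.1) and differences were computed in Python 3.11.15 with numpy 2.4.6 and pandas 2.3.3. Differences in share were checked on simulated Poisson counts, and the non-myeloid gates on cells built from a single marker list. Neither simulation held free RNA, sets or the uneven low values of the table. Members and lists were chosen with earlier results of these data known. The text names the 5 genes, listed markers, other tetraspanins and partners, and the 3 genes most like each. Alternatives were other gates, Apoe limits, cell filters, sets left out and scaling.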

Additional observations from a re-analysis of the deposited data

Results flagged for a closer look

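Cd81 pointed in opposite directions in the sets where very high and low Apoe could be compared: among microglia-marked cells the difference of the means was 1.18 in set B (23 cells with very high and 62 with low Apoe) and -2.15 in set F (74 and 37 cells). Cd63 in monocyte-marked minus microglia-marked cells with raised Apoe differed by 1.03 in set A (33 and 58 cells) and by -0.496 in set B (609 and 491 cells). The share of cells with Cd81 was lower with very high Apoe in both sets, at -1.75 points in B and -17.6 in F. Neither difference between sets was tested. In 35 groups of set means, 0 had a single set far from the others.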

How the results depend on the processing

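The differences between very high and low Apoe refer to shares of microglia-marked cells, in percentage points. Apoe limits of 5 and 100 gave 64.1 for Cd63, and at least 3 microglia markers gave -2.56 for Cd53. Leaving out each set in turn gave 21.5 to 33.6 for Cd9 and 49.1 to 62.1 for Cd63, the lowest without set A. Other settings were chosen after seeing the data. Unmarked myeloid cells in place of microglia-marked ones gave 37.1 for Cd9, 49.96 for Cd63, -2.90 for Cd81, 1.08 for Cd53 and 2.94 for Cd82. Shares at 2 or more gave 24.5 for Cd9, 52.3 for Cd63 and -38.4 for Cd81. Within set B the values were 11.0 for Cd9, 29.5 for Cd63, -1.75 for Cd81 and 11.7 for Cd53, and within set F 5.41 for Cd9, 36.5 for Cd63 and -4.05 for Cd82. The cause of these shifts was not tested. Of 30 shares in non-myeloid classes, 19 moved beyond their counting interval when cells with at least 4 myeloid markers were left out and 2 when the stated filters or a minimum of 400 genes were applied. At least 4 lineage markers moved 16 of them, at least 2 moved 9, and cells without Tyrobp moved 19. Scaling to a total of 1000 moved 19 of 65 class means out of the range of their set means, counting any shift in a class with 1 such set. No paired analysis was possible because replicate numbers of libraries are missing from the cell names. The limits are 1 pooled sample, an unknown depth, free RNA of an unknown amount in myeloid cells and Apoe ranges that nearly coincide with sets.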
